A study of Mus musculus with 4 samples.

Results

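The HoxA cluster is a row of neighbouring homeobox genes, and 10 of them, Hoxa2, Hoxa3, Hoxa4, Hoxa5, Hoxa6, Hoxa7, Hoxa9, Hoxa10, Hoxa11 and Hoxa13, are described here on 4 expression arrays in the order of the cluster. Members were all probe sets that the platform annotation pairs with 1 of these symbols. Each symbol had 1 probe set, which gave 10 of 35556 probe sets and 10 of the 19938 genes that could be named. The arrays measured colonies grown from mouse C57BL/6 long-term (LT-HSC) or short-term (ST-HSC) haematopoietic stem cells, in methylcellulose with serum, stem cell factor, IL-3, IL-6 and GM-CSF. Each population was studied after mock and after CreER transduction, which gave 4 groups with 1 array each. CreER is a Cre recombinase that a ligand of the oestrogen receptor switches on, and the title of the series says that the cells express MLL-ENL, which joins parts of Kmt2a and Mllt1 in leukaemia, in a conditional way. The labels give for no group the allele that carries MLL-ENL, the promoter that drives it, the age of the mice, or whether the recombinase had been switched on. A CreER minus mock difference therefore compares 2 transductions. The study's question was which genes take part in leukaemic transformation.

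Hox proteins are homeodomain transcription factors that set position along the body axis, and the order of the genes in a cluster follows the order of their expression along that axis. In blood formation the HoxA genes are active in stem and early progenitor cells and are turned down as cells mature. MLL, the product of Kmt2a, is a histone methyltransferase that binds unmethylated CpG sites and keeps HoxA genes active. MLL fusions hold Hoxa9 and its neighbours on, together with the cofactor gene Meis1. Polycomb complexes act in the opposite direction.

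The sequences at the starts of the genes are shown because binding of MLL to CpG-rich DNA makes their CpG content relevant. RefSeq on GRCm38.p6 gave start windows for 9 of the 10 genes, with 2 for Hoxa10, and the 250 bases before each start were read on the minus strand of chromosome 6, the coding strand. In the windows of Hoxa5 at chr6:52204588-52204837, Hoxa7 at chr6:52218574-52218823, Hoxa9 at chr6:52227371-52227620, the second start of Hoxa10 at chr6:52234940-52235189 and Hoxa13 at chr6:52260881-52261130, capitals mark CpG sites.
Hoxa5: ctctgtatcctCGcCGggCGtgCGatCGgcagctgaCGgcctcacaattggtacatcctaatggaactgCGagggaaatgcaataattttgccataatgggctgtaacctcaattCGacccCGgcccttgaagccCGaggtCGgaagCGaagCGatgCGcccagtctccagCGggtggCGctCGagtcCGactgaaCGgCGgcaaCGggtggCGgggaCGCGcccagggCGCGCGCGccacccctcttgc
Hoxa7: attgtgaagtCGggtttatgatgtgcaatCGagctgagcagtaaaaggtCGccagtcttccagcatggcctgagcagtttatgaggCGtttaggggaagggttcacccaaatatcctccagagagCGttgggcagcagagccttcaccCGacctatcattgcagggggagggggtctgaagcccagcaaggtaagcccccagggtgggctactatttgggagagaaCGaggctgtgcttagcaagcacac
Hoxa9: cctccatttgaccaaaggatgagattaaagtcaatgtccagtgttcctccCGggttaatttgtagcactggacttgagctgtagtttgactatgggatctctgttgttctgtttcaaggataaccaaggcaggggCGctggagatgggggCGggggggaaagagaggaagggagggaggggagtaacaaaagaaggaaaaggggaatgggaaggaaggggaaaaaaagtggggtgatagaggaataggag
Hoxa10: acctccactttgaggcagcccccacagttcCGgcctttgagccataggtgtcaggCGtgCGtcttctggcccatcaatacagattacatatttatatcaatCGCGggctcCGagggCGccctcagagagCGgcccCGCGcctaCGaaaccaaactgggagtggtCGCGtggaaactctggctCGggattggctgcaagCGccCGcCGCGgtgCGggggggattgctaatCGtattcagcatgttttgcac
Hoxa13: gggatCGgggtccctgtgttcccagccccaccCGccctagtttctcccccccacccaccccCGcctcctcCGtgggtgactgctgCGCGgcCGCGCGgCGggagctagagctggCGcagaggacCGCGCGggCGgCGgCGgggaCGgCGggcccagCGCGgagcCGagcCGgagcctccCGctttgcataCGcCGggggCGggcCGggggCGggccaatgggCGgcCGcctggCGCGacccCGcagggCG

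CpG content differed widely within the cluster, where Hoxa9 had the fewest sites and Hoxa13 the most. A relation of CpG content to the expression differences was not tested. The Hoxa13 window held 35 CpG sites, Hoxa5 28, Hoxa6 24, Hoxa3 18, Hoxa11 13, Hoxa7 7, Hoxa2 6 and Hoxa9 3. The first Hoxa10 window held 7 and the second 20. Over 32851 windows of this length the median was 6. At least as many CpG sites as in the Hoxa5 window were found in 7.61% of all windows, and at least as many as in the Hoxa9 window in 71%. The windows were also searched on both strands for 4 short motifs, none of which contains another. TTTATG, bound by the Cdx factors that act upstream of Hox genes, matched 2 times in the Hoxa7 window and in no other member's, against 10.8% of all windows. TGATNNAT, the composite site of Pbx and Hox proteins, matched in the Hoxa2 window, against 7.68% of all windows. TGACAG, the Meis site, matched in the Hoxa2 and Hoxa3 windows, against 15.9%. TATAAA matched in the second Hoxa10 window, against 12.4%. A match is a run of letters in this window and does not show binding.

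The cluster also encodes a microRNA. Mir196b lies between Hoxa9 and Hoxa10 in the RefSeq order, and its 5p strand shares the seed of miR-196a-5p, which is encoded in the HoxB and HoxC clusters on chromosomes 11 and 15. The seed, bases 2 to 8, is in capitals.
mmu-miR-196b-5p: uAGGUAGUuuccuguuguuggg
mmu-miR-196a-5p: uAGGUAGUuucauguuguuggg

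Values are the deposited log2 levels, on which a difference of 1 is 2-fold, and levels of different probe sets were not set against each other. A signal floor was placed on each array at the median of the named probe sets, between 8.07 and 8.13. Medians over all probe sets lay between 7.75 and 7.82. Every one of the 10 haematopoietic identity genes checked, among them Ptprc, which encodes CD45, and Spi1, was above the floor on 3 arrays and 9 of 10 on ST-HSC mock, where Cd34 was under it at 7.87. Of the HoxA genes, 1 was above the floor on ST-HSC mock, 1 on LT-HSC mock, 2 on ST-HSC CreER and 3 on LT-HSC CreER. Only Hoxa4, Hoxa7 and Hoxa9 were above it on any array. Levels under the floor are compressed on such arrays, so the size of the other 7 genes' differences is uncertain. With 1 array in a group no difference between 2 arrays has a test, and a difference was counted when it was at least 2-fold and above the floor on the higher array.

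The LT-HSC CreER array carried the highest signal of all 10 HoxA genes. It was the highest array for 35.2% of all genes, so part of such a count is shared with the array as a whole. The lead of LT-HSC CreER over the next array was uneven along the cluster. It was 0.09 for Hoxa2, 0.21 for Hoxa3, 0.05 for Hoxa4, 0.60 for Hoxa5, 0.45 for Hoxa6, 0.41 for Hoxa7, 0.85 for Hoxa9, 0.41 for Hoxa10, 0.07 for Hoxa11 and 0.05 for Hoxa13. The lead was thus at least 0.41 for the 5 genes from Hoxa5 to Hoxa10 and at most 0.21 for the other 5. This stretch was marked off after the values were seen, so it is a description only. The range of the other 3 arrays was 0.36 for Hoxa5, 0.10 for Hoxa6, 0.16 for Hoxa7, 0.39 for Hoxa9 and 0.22 for Hoxa10, each smaller than the lead. That was also so for Hoxa2, with a range of 0.08, and Hoxa4, with 0.02, where both the lead and the range were small. It was not so for Hoxa3, Hoxa11 and Hoxa13. The share of all genes with a lead above this range is not given here, so the comparison is a description only.

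**Figure D1:**
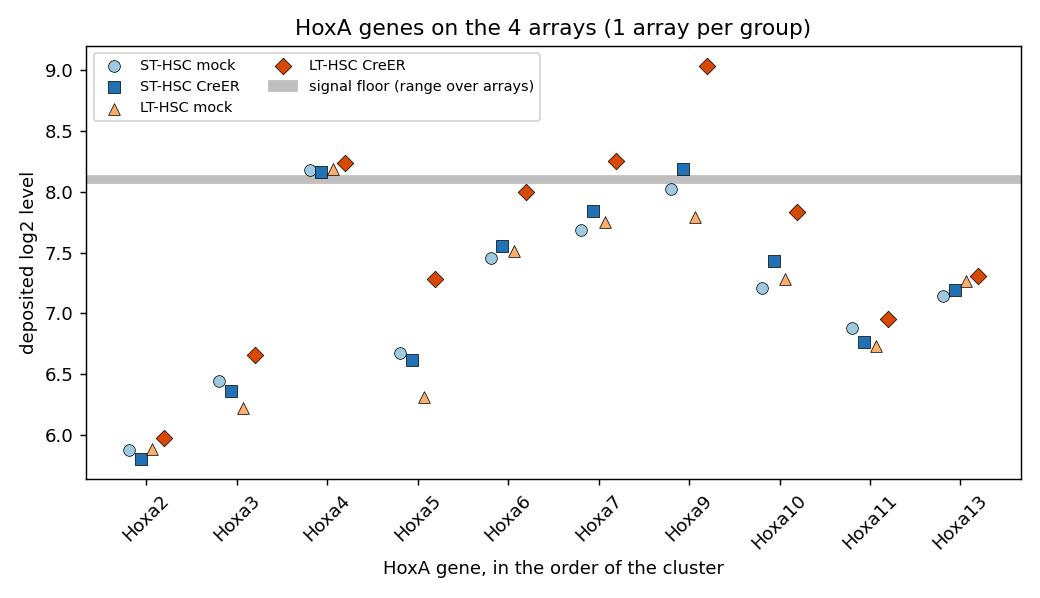
Deposited log2 level (vertical axis) of each HoxA gene, in cluster order (horizontal axis), with 1 point for each of the 4 arrays and the range of the signal floor as a grey band. The LT-HSC CreER point is highest for all 10 genes, with a lead of 0.41 to 0.85 from Hoxa5 to Hoxa10 and of 0.05 to 0.21 for the other genes.

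The anterior genes come first in the cluster. Hoxa2, a patterning gene of the hindbrain and neural crest, stood at 5.88 on ST-HSC mock, 5.89 on LT-HSC mock, 5.80 on ST-HSC CreER and 5.97 on LT-HSC CreER, a spread under 0.2 with all arrays below the floor. Hoxa3, needed for the thymus and parathyroid glands, stood at 6.44, 6.22, 6.36 and 6.66 on the same arrays in that order. For Hoxa3 the lowest array was LT-HSC mock and the highest LT-HSC CreER, with both ST-HSC arrays between them. Its RefSeq start window, chr6:52213068-52213317, lies between those of Hoxa6 and Hoxa7, so the annotated Hoxa3 transcript spans genes of the stretch described above. Which exons its probe set covers was not analysed here.

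Hoxa4 was the flattest member although it was above the floor on every array. It stood at 8.18 on ST-HSC mock, 8.18 on LT-HSC mock, 8.16 on ST-HSC CreER and 8.24 on LT-HSC CreER. All of its arrays thus lay within 0.1 of each other, while the genes on both sides of it differed more.

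Hoxa5, a regulator of lung and axial development that also acts in blood progenitors, stood at 6.68 on ST-HSC mock, 6.32 on LT-HSC mock, 6.62 on ST-HSC CreER and 7.28 on LT-HSC CreER. The LT-HSC arrays were therefore its lowest and its highest, and all 4 were under the floor. Hoxa6 stood at 7.45, 7.51, 7.55 and 8.0 in the same order, with LT-HSC CreER alone set apart. Hoxa7, a gene commonly raised with Hoxa9 in MLL-rearranged leukaemia, stood at 7.69, 7.75, 7.84 and 8.25 and crossed the floor on LT-HSC CreER only.

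Hoxa9, the HoxA gene most closely tied to MLL-fusion leukaemia and a driver of progenitor self-renewal, stood at 8.02 on ST-HSC mock, 7.79 on LT-HSC mock, 8.18 on ST-HSC CreER and 9.04 on LT-HSC CreER. Both CreER arrays were above the floor and both mock arrays under it. Hoxa10, a regulator of myeloid progenitors and of the uterus, stood at 7.21, 7.28, 7.43 and 7.84 in the same order. Both CreER arrays were above both mock arrays for Hoxa10, as for Hoxa6, Hoxa7 and Hoxa9, and all Hoxa10 levels were under the floor. The share of all genes with both CreER arrays on top is not given here, so this is a description only. Mir196b, read from its own probe set between these 2 genes, stood at 7.31, 7.21, 7.26 and 7.57, again highest on LT-HSC CreER.

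Hoxa11 and Hoxa13, at the posterior end of the cluster, varied little. Hoxa11, a gene of limb, kidney and uterus, stood at 6.88 on ST-HSC mock, 6.73 on LT-HSC mock, 6.76 on ST-HSC CreER and 6.95 on LT-HSC CreER. Hoxa13, which patterns the digits and the hindgut, stood at 7.15, 7.26, 7.19 and 7.31, with both LT-HSC arrays above both ST-HSC arrays. Neither gene reached the floor on any array.

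In LT-HSC-derived cells, CreER against mock gave larger differences in the middle of the cluster than at its ends. Hoxa9 was higher by 1.24, or 2.36-fold, and was the 1 member that met the size rule. Only 3 of the 10 were past the floor here, and the others could not be counted. Of all genes past the floor, 0.875% met the rule in either direction and 0.108% as higher. Hoxa5 was higher by 0.97, Hoxa10 by 0.55, Hoxa7 by 0.50, Hoxa6 by 0.49 and Hoxa3 by 0.43. Hoxa11 differed by 0.22, Hoxa2 by 0.09, Hoxa4 by 0.05 and Hoxa13 by 0.05. All 10 values were above 0, as were 59% of all genes.

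Set against all 19938 genes, a difference at least as high as that of Hoxa9 was found in 0.0401% and one at least as high as that of Hoxa5 in 0.0802%. The shares were 0.993% for Hoxa10, 1.55% for Hoxa7, 1.67% for Hoxa6, 2.65% for Hoxa3 and 17.8% for Hoxa11. For Hoxa2, Hoxa4 and Hoxa13 they were 41.3%, 48.5% and 49.8%, near the middle of all genes. Olfactory receptor genes, mostly silent in blood, give a second yardstick, for signals far under the floor. Their median level lay between 5.72 and 5.79 on the arrays and their 95th percentile between 7.28 and 7.41. Hoxa4, Hoxa6, Hoxa7 and Hoxa9 were above that percentile on every array, so most olfactory receptor genes are dimmer than these members. None of the 1027 olfactory receptor genes differed as far upward as Hoxa9 or Hoxa5, against 1.36% for Hoxa10, 1.95% for Hoxa7, 2.14% for Hoxa6 and 3.7% for Hoxa3.

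In ST-HSC-derived cells the same genes differed little between CreER and mock. Hoxa10 was higher by 0.22, Hoxa9 by 0.16, Hoxa7 by 0.16, Hoxa6 by 0.10 and Hoxa13 by 0.04, whereas Hoxa4 (-0.01), Hoxa5 (-0.06), Hoxa2 (-0.07), Hoxa3 (-0.08) and Hoxa11 (-0.11) were lower. Past the floor were 2 of the 10, and the others could not be counted by the size rule. Neither of the 2 met it, against 0.518% of genes past the floor. Above 0 were 5 of 10, against 46.2% of all genes. A difference at least as high as that of Hoxa10 was found in 7.2% of all genes and one at least as high as that of Hoxa9 in 12.4%. The median was 0.01, and with the arrays centred on olfactory receptor genes it was -0.02.

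**Figure D2:**
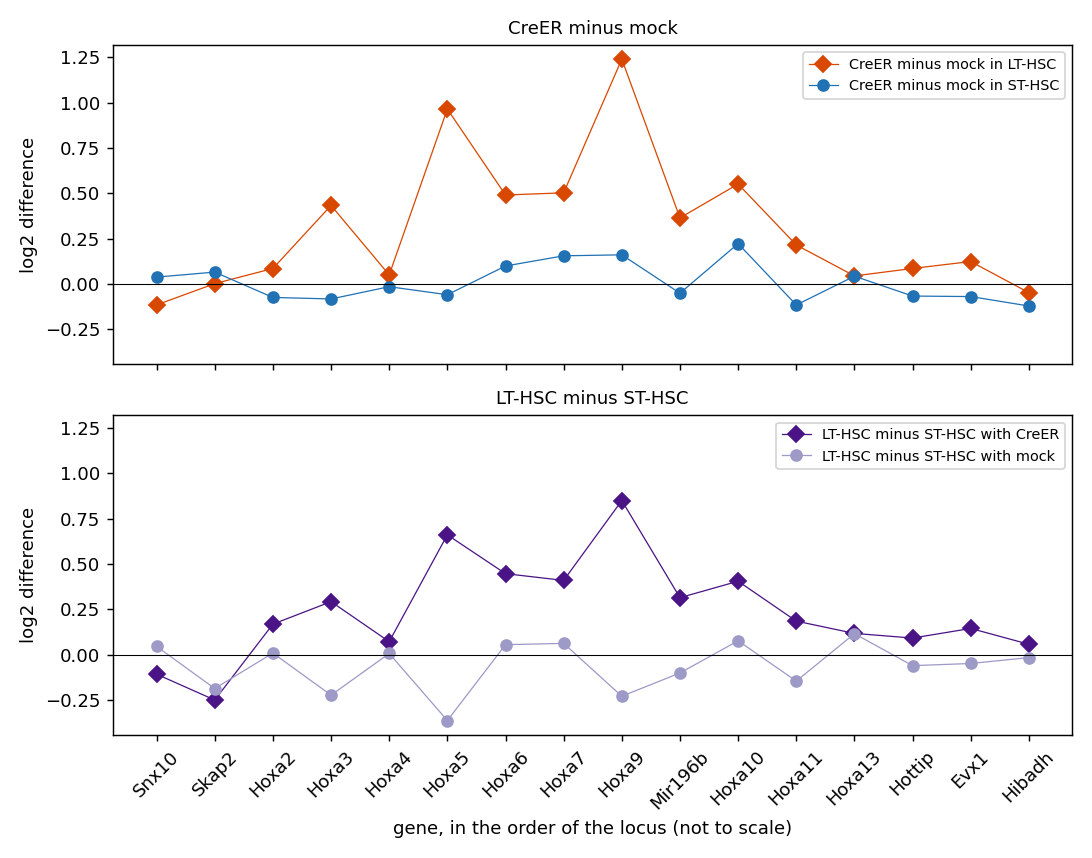
Log2 difference (vertical axis) of the HoxA genes, Mir196b, Hottip and flanking genes in locus order, not to scale (horizontal axis), for CreER minus mock (top) and LT-HSC minus ST-HSC (bottom). The LT-HSC CreER comparisons peak at Hoxa5 and Hoxa9, dip at Hoxa4 and are low again at Hoxa13, while the other 2 comparisons stay between -0.36 and 0.22 over the HoxA genes.

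Taking the ST-HSC difference from the LT-HSC difference, CreER minus mock was larger in LT-HSC-derived cells by 1.08 for Hoxa9 and by 1.02 for Hoxa5. It was larger by 0.52 for Hoxa3, 0.39 for Hoxa6, 0.35 for Hoxa7, 0.33 for Hoxa10 and 0.33 for Hoxa11, and by 0.16, 0.07 and 0.00 for Hoxa2, Hoxa4 and Hoxa13. A value at least as high as that of Hoxa9 was found in 0.115% of all genes and one at least as high as that of Hoxa5 in 0.145%. With 4 arrays no degree of freedom is left for this term, so it has no test.

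Between the stem cell populations, mock-transduced colonies showed no common direction along the cluster. LT-HSC minus ST-HSC was -0.36 for Hoxa5, -0.23 for Hoxa9, -0.22 for Hoxa3 and -0.15 for Hoxa11, and lay between 0.01 and 0.12 for the other 6 genes. The size rule could count only Hoxa4 here, the 1 member past the floor, and Hoxa4 did not meet it. Of all genes past the floor 3.12% did. Above 0 were 6 of 10 members, against 44.2% of all genes. With the arrays centred on all genes or on olfactory receptor genes, Hoxa2 and Hoxa4 changed sign, which left 4 of 10 above 0.

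With CreER, LT-HSC-derived colonies were the higher for each member. The difference was 0.85 for Hoxa9, 0.66 for Hoxa5, 0.45 for Hoxa6, 0.41 for Hoxa7 and 0.41 for Hoxa10, and then 0.29 for Hoxa3, 0.19 for Hoxa11, 0.17 for Hoxa2, 0.12 for Hoxa13 and 0.07 for Hoxa4. None of the 3 members past the floor met the size rule, against 1.94% of genes past the floor, and the other members could not be counted. All 10 were above 0, against 58.2% of all genes. A value at least as high was found in 1.07% of all genes for Hoxa9 and in 1.91% for Hoxa5. The array of LT-HSC CreER also enters the CreER minus mock difference of LT-HSC-derived cells, so the likeness of both is not a second observation.

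An additive limma fit over the 4 arrays, with a term for population and one for transduction, tested the 3 members past the floor. For CreER against mock, Hoxa9 had a log2 difference of 0.70 (SE 0.25) with an adjusted p of 0.461, Hoxa7 one of 0.33 (SE 0.12) with an adjusted p of 0.461, and Hoxa4 one of 0.02 (SE 0.09) with an adjusted p of 0.966. No gene of 10411 passed an adjusted p of 0.05, while 1048, or 10.1%, had an unadjusted p under 0.05 in limma. Hoxa7 passed the floor only on LT-HSC CreER and Hoxa9 only on the CreER arrays, where they are high, so their unadjusted p-values support nothing. For LT-HSC against ST-HSC, Hoxa9 had a difference of 0.31 (SE 0.25), Hoxa7 of 0.24 (SE 0.12) and Hoxa4 of 0.04 (SE 0.09), with adjusted p-values of 0.494, 0.284 and 0.827 in limma. Of all genes tested 6.27% were called for population, and 25.7% had an unadjusted p under 0.05 in limma. The fit assumes the same CreER difference in both populations. Hoxa9, with 1.24 and 0.16, thus had a wide SE. Without a floor, all 10 members were tested among 19938 genes, and the smallest limma adjusted p for CreER against mock was 0.444, for Hoxa10.

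The higher signal in LT-HSC CreER cells was not seen in 3 genes close to the ends of the cluster. Skap2, an adaptor of immune cells on the Hoxa2 side, had a CreER minus mock difference of 0.00 among LT-HSC-derived cells, Snx10 by -0.11, and Hibadh, an enzyme of valine breakdown on the Hoxa13 side, by -0.05. All 3 were above the floor on all arrays. Evx1, a homeobox gene next to Hoxa13, and Hottip, a long noncoding RNA of the posterior end, differed by 0.12 and 0.09 under the floor. Hoxaas2, Mir196b and both Mir196a genes were likewise under the floor on all arrays, where differences are compressed. Within the cluster Hoxaas2, a noncoding RNA next to Hoxa3, differed by 0.12. Mir196b differed by 0.37, a value reached by 4.82% of all genes, against -0.05 in ST-HSC-derived cells. The Mir196a-1 and Mir196a-2 genes of the other clusters differed by 0.17 and 0.16. Of 9 flanking genes fixed as a list, 5 were above 0, with a median of 0.00 and a range from -0.55 for Creb5 to 0.30 for Hnrnpa2b1. In limma 0 of the 8 tested were called for CreER, and Jazf1 alone was called for LT-HSC against ST-HSC, higher by 0.63 (adjusted p = 0.0262). Halr1, Hotairm1, Hoxaas3 and Hoxa11os were not analysed here.

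The other Hox clusters, which hold paralogues of the HoxA genes, set the members beside genes of like kind. For CreER minus mock in LT-HSC-derived cells the median was 0.46 in HoxA, 0.13 over 9 HoxB genes, 0.12 over 9 HoxC genes and 0.18 over 9 HoxD genes, against 0.09 for olfactory receptor genes and 0.04 for all genes. The highest of those 27 other Hox genes was Hoxd9, at 0.36, below 6 of the 10 HoxA genes. Of the 27, 25 were above 0, and LT-HSC CreER was the highest array for 21. All HoxC and HoxD genes were under the floor on every array, and 1 to 3 of the 9 HoxB genes were above it, so these differences are as uncertain in size as those of the dim HoxA genes. Of the paralogues of Hoxa9, all under the floor, Hoxd9 differed by 0.36, Hoxc9 by 0.19 and Hoxb9 by -0.18. In ST-HSC-derived cells the medians were 0.01, 0.07, 0.05 and -0.01 for HoxA, HoxB, HoxC and HoxD. Hoxb4, which expands stem cells, was lower in LT-HSC-derived cells, by 0.47 with mock and 0.46 with CreER, and missed the limma threshold at an adjusted p of 0.0519. Of the 3 HoxB genes tested none was called in either limma contrast. Hoxb8, whose probe set is shared with Hoxb7, was left out.

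**Figure D3:**
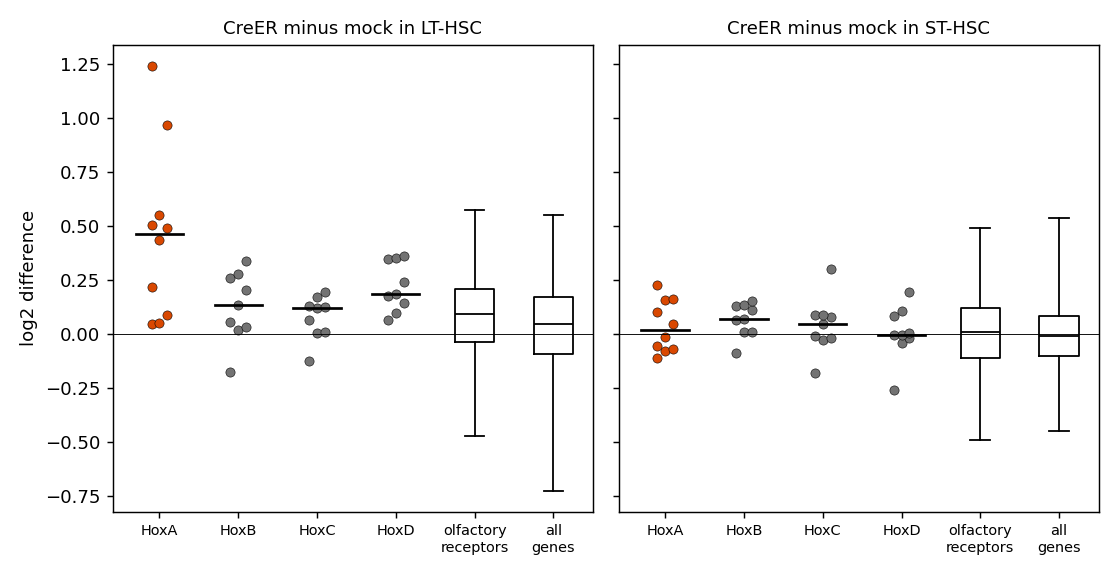
Log2 difference of CreER minus mock (vertical axis) for each gene of the 4 Hox clusters as points with the median as a bar, and for olfactory receptor genes and all genes as boxes (quartiles, whiskers from the 1st to the 99th percentile), in LT-HSC-derived (left) and ST-HSC-derived cells (right). The HoxA median is 0.46 on the left and 0.01 on the right, while the other clusters lie between -0.01 and 0.18 in both.

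The TALE cofactors bind DNA together with Hox proteins. Over 10 of them the median CreER minus mock difference was 0.26 for LT-HSC and 0.00 for ST-HSC, and that of LT-HSC minus ST-HSC was -0.02 with mock and 0.24 with CreER. Meis1 stood at 7.10 on ST-HSC mock, 8.37 on LT-HSC mock, 7.59 on ST-HSC CreER and 9.11 on LT-HSC CreER, so both LT-HSC arrays exceeded both ST-HSC arrays. It rose in LT-HSC against ST-HSC by 1.40 (SE 0.11, adjusted p = 0.00606, limma), and its CreER minus mock difference was 0.74 for LT-HSC and 0.49 for ST-HSC. Pbx3, often expressed with Hoxa9 in leukaemia, differed by 0.27 and 0.10, and Meis2, under the floor on all arrays, by 0.52 and -0.13. Pknox2 fell by 0.69 in LT-HSC against ST-HSC (SE 0.12, adjusted p = 0.0433, limma). Of 8 cofactors tested, those 2 were called for population and 0 for CreER.

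Genes that control the HoxA cluster differed less. Of 24 MLL complex genes and activators, 18 were above 0 for CreER in LT-HSC-derived cells, with a median of 0.09 and a range of -0.22 to 0.31, and limma called 0 of 22 tested in either contrast. Kmt2a differed by 0.14 and Mllt1 by 0.16, and the caudal genes Cdx1, Cdx2 and Cdx4 by 0.13, 0.15 and 0.31, of which Cdx2 and Cdx4 were under the floor. Of 21 Polycomb genes 10 were above 0, with a median of -0.01. Among them Ezh2, the histone methyltransferase of Polycomb complex 2, was higher by 0.40, and Bmi1, of Polycomb complex 1, differed by -0.42. Limma called 0 of 21 for CreER and Phc1, higher by 0.60 (adjusted p = 0.0323), for LT-HSC against ST-HSC.

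Genes linked to HOXA9 and MEIS1 in leukaemia differed in the same comparison with a median of 0.20 over 13, of which 11 were above 0. Cd34, the progenitor antigen, was higher by 1.13 and Flt3, a receptor of early progenitors, by 0.88 under the floor, followed by Meis1 (0.74) and Lmo2 (0.62). Bcl2 differed by -0.37. Limma called 0 of 10 for CreER and 4 for LT-HSC against ST-HSC, Bcl2, Cd34, Meis1 and Myc, all higher, and none of these 4 is a HoxA gene.

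Markers of the cell types in the colonies also differed between the arrays. In LT-HSC-derived cells all 11 progenitor and primary granule genes were above 0 for CreER minus mock, with a median of 0.50, and 10 of 11 monocyte and macrophage genes were below 0, with a median of -0.48. The mean log2 level of the progenitor list was 11.3 with mock and 11.9 with CreER for LT-HSC, against 11.4 and 11.5 for ST-HSC, and that of the macrophage list was 11.2 and 10.6 against 11.3 and 11.0. In ST-HSC-derived cells the progenitor median was -0.01 and the macrophage median -0.30. The mast cell and basophil list was highest on LT-HSC mock, at 11.5, against 10.9 on LT-HSC CreER, 9.55 on ST-HSC CreER and 8.90 on ST-HSC mock. No HoxA gene had that order, although Hoxa13 also had both LT-HSC arrays above both ST-HSC arrays. The mean of the progenitor list, in contrast, had the array order of Hoxa9. It ran from LT-HSC CreER (11.87) through ST-HSC CreER (11.48) and ST-HSC mock (11.38) to LT-HSC mock (11.34). The order of the ST-HSC arrays was not shared across the list. For CreER minus mock in ST-HSC-derived cells 6 of its 11 genes were below 0. The largest rises there were 0.73 for Cd34 and 0.39 for Flt3, which was under the floor. The part of these shifts in the HoxA differences was not tested, and in bulk colonies fewer cells of a type and less RNA per cell cannot be told apart. Of the 10 stromal, endothelial and epithelial markers, Pdgfra, Dcn, Cdh5 and Epcam were under the floor on all arrays. Col1a1, Col3a1, Krt8 and Pecam1 were above it on all 4 arrays, Col1a2 on 3 and Pdgfrb on the LT-HSC arrays. For CreER minus mock in LT-HSC-derived cells, Col1a1 differed by 0.16, Col1a2 by 0.30 and Pdgfrb by -0.29. Pdgfrb was higher in LT-HSC-derived than in ST-HSC-derived cells, by 1.23 with mock and 0.95 with CreER. Lymphoid genes were under the floor on all arrays.

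By distance between array profiles centred on their own mean, the genes most like Hoxa9 among 10057 named genes past the floor were Snora73b (0.25), Hspa2 (0.28), Snora73a (0.29), Cd27 (0.30) and Ndrg2 (0.35), over 4 arrays. Snora73a and Snora73b encode small nucleolar RNAs, Hspa2 a heat shock protein, and Cd27 a receptor of the tumour necrosis factor receptor family. Cd27 passed the floor only on LT-HSC CreER, at 8.20, where it is high. It stood at 6.92 on ST-HSC mock, 7.07 on LT-HSC mock and 7.15 on ST-HSC CreER, so its distance rests largely on compressed levels. Snora73b stood at 10.12 on ST-HSC mock, 9.94 on LT-HSC mock, 10.09 on ST-HSC CreER and 10.88 on LT-HSC CreER, an order of arrays close to that of Hoxa9. Of the other members, Hoxa5 lay at 0.30, Hoxa10 at 0.49, Hoxa7 at 0.53, Hoxa6 at 0.53 and Hoxa3 at 0.66, and Hoxa11, Hoxa2, Hoxa13 and Hoxa4 lay between 0.80 and 0.89. Of these members only Hoxa4, on every array, and Hoxa7, on LT-HSC CreER alone, passed the floor. The distances of the others, and largely that of Hoxa7, rest on compressed levels, and the members were given no rank among the named genes.

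Rescaling the arrays moved members in the middle of the cluster about as far as those at its ends, and turned the sign of some that lay near 0. After cyclic loess Hoxa5 was higher by 0.86 and Hoxa10 by 0.45, against 0.97 and 0.55 as deposited. In LT-HSC-derived cells the lowest CreER minus mock value from Hoxa5 to Hoxa10 was 0.49 as deposited, 0.44 after quantile normalization, 0.40 after cyclic loess, and 0.46 and 0.45 with the arrays centred on all genes and on olfactory receptor genes. Hoxa13 turned from 0.05 to -0.02 after quantile normalization. After cyclic loess Hoxa2, Hoxa4 and Hoxa13 were all below 0, with Hoxa13 at -0.06. The median of the 10 genes lay between 0.37 and 0.46. The direction of Hoxa2, Hoxa4 and Hoxa13 is thus not settled, and the count of 10 above 0 held under 3 of the 5 scalings.

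**Figure D4:**
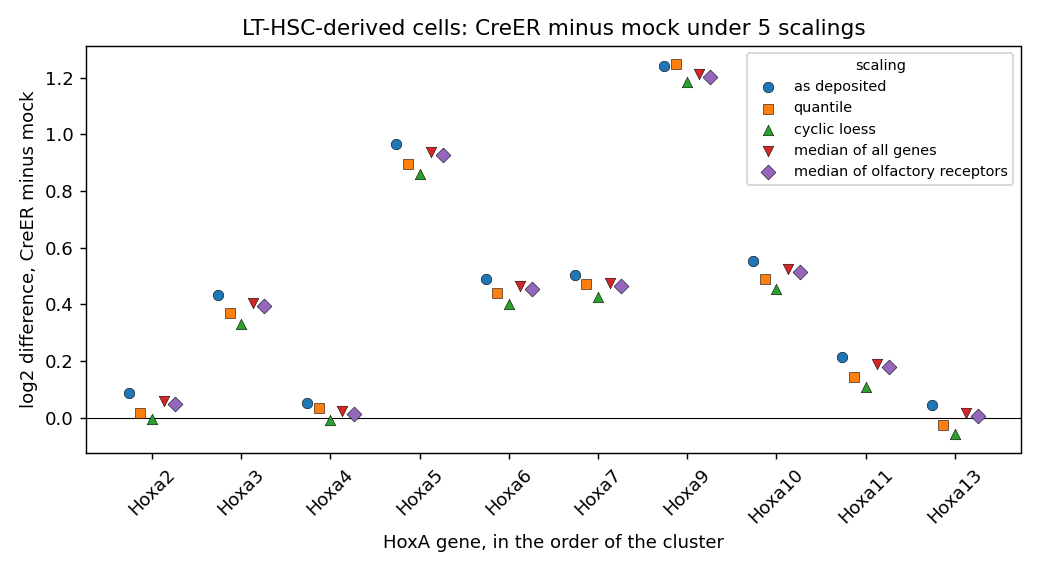
Log2 difference of CreER minus mock in LT-HSC-derived cells (vertical axis) for each HoxA gene in cluster order (horizontal axis), with 1 point per scaling of the arrays. Hoxa9 stays between 1.19 and 1.25, while Hoxa2, Hoxa4 and Hoxa13 lie within 0.1 of 0 and change sign.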

How the data were processed

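RNA of mouse colony-forming cells was amplified and hybridised to Affymetrix whole-transcript arrays, 1 per group, per the labels. Affymetrix Expression Console made the deposited values, per the submitters' processing notes, and the sources used here state no version, summarisation or normalization for it. These deposited values span 2.21 to 14.82, as log2 levels do, and were used unchanged. Probe sets with 1 symbol in the platform annotation (21789) gave 19938 genes, with the brightest probe set kept for 999 genes with several. Pairwise differences have no test. An additive model (population and transduction) was fitted with limma 3.58.1 in R 4.3.3 to the 10411 genes above the floor on any array, calling genes at a Benjamini-Hochberg adjusted p of 0.05, with 1 residual and 4.27 prior degrees of freedom. The labels do not name separate animals, so p-values reflect the spread between these arrays only. The fit was tested on simulated data. Members and lists were chosen with earlier results of these data known. Named genes were the members, their locus neighbours and named regulators, up to 4 genes with the largest difference of each list and the 5 genes nearest Hoxa9; a few others, such as paralogues, were named after their values were seen. Start windows and microRNA sequences are from RefSeq tables of GRCm38.p6. Precision is limited by having 4 arrays.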

Additional observations from a re-analysis of the deposited data

Results flagged for a closer look

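For 5 HoxA genes CreER minus mock had opposite signs on the LT-HSC and the ST-HSC arrays. The gap between the populations was 1.02 for Hoxa5, 0.52 for Hoxa3, 0.33 for Hoxa11, 0.16 for Hoxa2 and 0.065 for Hoxa4. Hoxa9 had opposite signs for LT-HSC minus ST-HSC with CreER and with mock, with a gap of 1.08, and so did Hoxa3, Hoxa5 and Hoxa11. These differences were not tested, because each group holds 1 array. Of all genes, 59% were above 0 for CreER minus mock on the LT-HSC arrays and 46.2% on the ST-HSC arrays. For LT-HSC minus ST-HSC the shares were 44.2% with mock and 58.2% with CreER. How many of all genes had opposite signs is not given here, so the number of members that did is a description only. For Hoxa2 and Hoxa4 a change of scaling turned the sign of CreER minus mock in LT-HSC-derived cells.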

How the results depend on the processing

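The HoxA medians of the pairwise comparisons moved by less than the median residual SD of the additive fit (0.0975) under quantile normalization, cyclic loess, centring on all genes, centring on olfactory receptor genes and the mean of probe sets. Near-zero medians changed sign: CreER minus mock in ST-HSC-derived cells, and LT-HSC minus ST-HSC with mock, which was -0.03 centred on all genes. Hoxa9 no longer met the size rule with a floor at the 75th percentile (0 of 10 members) or at 3-fold (0), and at 1.5-fold it was the 1 member to meet it for LT-HSC minus ST-HSC with CreER. Counts over all genes for CreER minus mock in LT-HSC, CreER minus mock in ST-HSC, LT-HSC minus ST-HSC with mock and the same with CreER were 417, 200, 825 and 697 at 1.5-fold and 12, 7, 143 and 67 at 3-fold. With the floor at the 75th percentile they were 53, 169 and 93 for all but the second. Limma called 653 genes for LT-HSC against ST-HSC; it called 368 after cyclic loess, 186 with the floor at the 75th percentile, 200 without the transduction term and 1401 at an adjusted p of 0.1. It called 0 for CreER against mock under every alternative run. Leaving out an array was not run, since it removes a group and leaves the additive fit no residual degree of freedom. No paired analysis was possible because each group holds 1 array and the labels give no replicate numbers. Most HoxA levels lie under the signal floor, which limits what these arrays can show of them.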
